A study of Talpa occidentalis with 24 samples.

Results

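The regions described here are distal enhancers of the Iberian mole, Talpa occidentalis, that were called active in the testis and in neither portion of the ovotestis. They number 10573 of 62589 distal enhancer regions formed over 3 gonad tissues. An active enhancer segment was taken as distal when it was at least 400 bp long and was separated by more than 2 kb from any segment called promoter or bivalent promoter in any of the 3 tissues. Overlapping segments were merged over tissues, scaffolds 15 and 18 were left out, and a region was kept when it had promoter or active enhancer bases in the testis and none in the testicular portion or the ovarian portion. The enhancers were thus selected on the state calls themselves, so their activity in the testis and its absence elsewhere are the rule and not a result.

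Gonads of wild type moles at postnatal day 7 had been profiled by ChIP-seq, the sequencing of DNA pulled down with modified histones. The groups were the testis, the testicular portion of the ovotestis and the ovarian portion of the ovotestis, with 8 libraries each out of 24; every tissue had 2 replicates of each of 4 modifications, H3K4me3, H3K4me1, H3K27ac and H3K27me3. The authors combined the libraries of a tissue into 1 segmentation, which gives every 200 bp bin of the talOcc4 assembly 1 of 7 state names. There is therefore no replicate of any value below, the depth is unknown, and no difference between tissues was tested. Whether the replicates came from separate animals is not stated in the labels. Positions are given by talOcc4 scaffold number and count from 1.

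Enhancers are regulatory stretches of DNA that raise transcription of genes at a distance. Trimethylated lysine 4 of histone H3 (H3K4me3) marks promoters. Monomethylated lysine 4 (H3K4me1) marks enhancers in general, acetylated lysine 27 (H3K27ac) marks those in use, and a poised enhancer usually carries the first mark without the second. Polycomb complexes deposit trimethylated lysine 27 (H3K27me3) on silenced genes and their surroundings. Female moles of the genus Talpa carry ovotestes, in which an ovarian portion with oocytes adjoins a testicular portion that makes androgens and lacks germ cells, whereas the testis of the male holds germ cells as well as Sertoli and Leydig cells. In such whole tissue, fewer cells with an active enhancer and a weaker mark in every cell cannot be told apart.

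Of all distal regions, 16.9% were active in the testis and in neither portion, against 14.9% active in the testicular portion alone (9296 regions) and 12.0% active in the ovarian portion alone (7515 regions). Among the 41283 distal regions with any activity in the testis, the testis-only enhancers made up 25.6%. The corresponding share was 22.1% for the testicular portion and 22.5% for the ovarian portion. Active states (promoter and active enhancer together) covered 6.04% of the bases outside scaffolds 15 and 18 in the testis, 5.71% in the testicular portion and 4.35% in the ovarian portion, and this unequal coverage moves with the counts; its part in them was not tested.

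Each testis-only enhancer was a single active enhancer segment of the testis. The median length was 1000 bp, with quartiles of 600 and 1600 bp, and the longest reached 8000 bp. Together they covered 13.1 Mb, 12.0% of the active enhancer bases of the testis. Regions of the testicular portion alone had a median of 1000 bp with an upper quartile of 1200 bp, and those of the ovarian portion alone a median of 800 bp with an upper quartile of 1000 bp. A length of at least 2000 bp was reached by 1595 testis-only enhancers (15.1%), by 620 regions of the testicular portion alone (6.67%) and by 418 of the ovarian portion alone (5.56%). Of all distal segments of the testis, 10540 of 40756 had 2000 to 3800 bp. For the testicular portion these were 9849 of 42043, and for the ovarian portion 5999 of 34177. The other distal segments of the testis were longer than the testis-only enhancers, with a median of 1600 bp and quartiles of 1000 and 2600 bp. At the thresholds of the rule, 1372 enhancers had the shortest length kept, 400 bp, and 797 segments of 200 bp met every other condition. With a minimum of 1000 bp, the rule gave 6284 enhancers. A gap of 2200 bp to the nearest promoter state, the smallest kept, was seen for 64 enhancers, and 43 regions were left out at a gap of exactly 2000 bp.

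Short segments were more often specific to the testis than long ones. Of the distal testis segments of 400 bp, 53.7% were testis-only, against 27.6% of those of 1000 to 1800 bp and 4.08% of those of 4000 bp or more. The share specific to the testicular portion also fell with length, with 48.6% at 400 bp and 0.510% at 4000 bp or more, and that of the ovarian portion likewise, with 43.7% and 1.69%. A longer segment has more bases on which it can meet activity in another tissue, so this order is partly built into the rule. In the class of at least 4000 bp, 144 of 3530 segments were testis-only, against 15 of 2942 for the testicular portion and 23 of 1358 for the ovarian portion. The long end of the length range therefore held more regions of the testis alone than of either other tissue alone.

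In the ovotestis, most of the bases of these enhancers were in the poised state. In the testicular portion 86.3% of the bases were poised, 12.9% were undefined and 0.779% were in the Polycomb state. In the ovarian portion 75.8% were poised, 22.4% undefined and 1.69% in the Polycomb state. Over the genome without scaffolds 15 and 18 the poised state covered 21.8% in the testicular portion and 23.2% in the ovarian portion, and the Polycomb state 4.85% and 4.99%. The poised share of the enhancers was therefore above that of the genome, and their Polycomb share below it, in both portions. The rule removed promoter and active enhancer bases and, through the distance to promoters, bivalent ones, and left the split over the other states free. With scaffolds 15 and 18 kept, the Polycomb shares of the enhancers were 1.46% in the testicular portion and 2.74% in the ovarian portion.

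**Figure D1:**
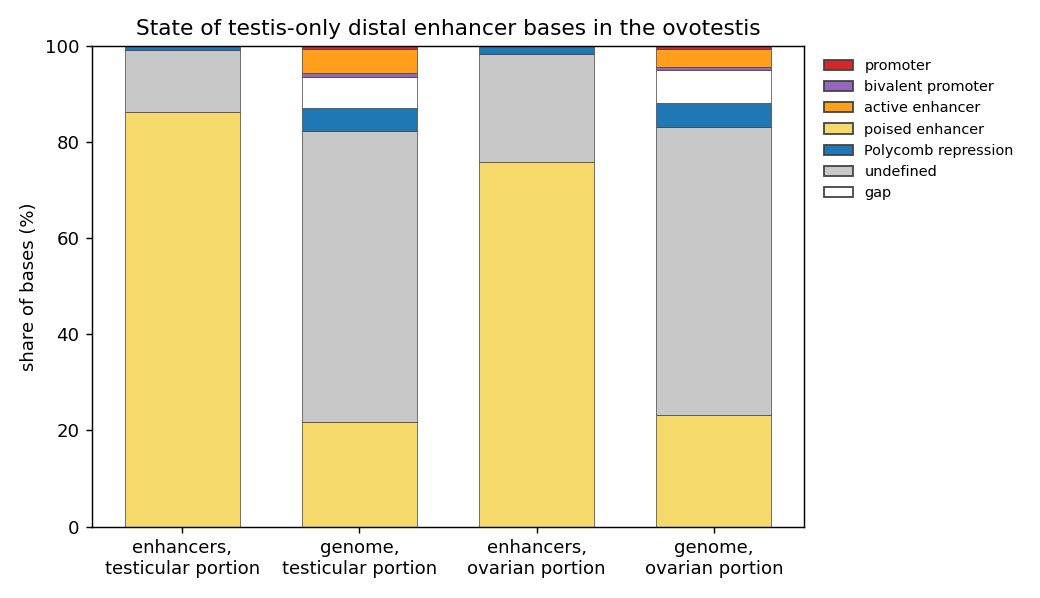
Share of bases (%) in each chromatin state, for the 10573 testis-only distal enhancers and for the genome without scaffolds 15 and 18, in the testicular portion and in the ovarian portion of the ovotestis (1 segmentation each, no error bars). The poised state takes 86.3% and 75.8% of the enhancer bases in the testicular and ovarian portion, against 21.8% and 23.2% of the genome.

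A closer reference is given by bases that were poised in the testis itself. Of those that were neither promoter nor active enhancer in the portion compared, 67.7% were poised in the testicular portion and 61.8% in the ovarian portion. Both values lay below those of the testis-only enhancers. The Polycomb state covered 1.14% of these reference bases in the testicular portion and 1.58% in the ovarian portion. Against this reference the Polycomb share of the enhancers was lower in the testicular portion (0.779%) and slightly higher in the ovarian portion (1.69%). The other classes active in 1 tissue alone were also mainly poised elsewhere. Regions of the testicular portion alone were poised over 91.7% of their bases in the testis and over 91.4% in the ovarian portion. Regions of the ovarian portion alone were poised over 79.4% in the testis and over 88.6% in the testicular portion, and in the Polycomb state over 6.30% in the testis and 2.13% in the testicular portion. The undefined share of the testis-only enhancers in the ovarian portion, 22.4%, was higher than that of either other class in either tissue, the next being 14.3% for regions of the ovarian portion alone in the testis.

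Counted by enhancer, with a state assigned where it held more than 50% of the bases, 7755 (73.3%) were poised in both portions. A further 1606 (15.2%) were poised in the testicular portion and not in the ovarian portion, against 494 (4.67%) in the opposite direction, and 718 (6.79%) were poised in neither. Most of the first group, 1380 enhancers, were undefined in the ovarian portion. This order is the reverse of that of the genome, where the poised state covered more in the ovarian portion, and the same as that of the bases poised in the testis, given above. It was seen on 16 of the 16 scaffolds with at least 50 testis-only enhancers, where 37 to 145 enhancers were poised in the testicular portion alone and 14 to 48 in the ovarian portion alone. The poised share of bases on these scaffolds ran between 83.3% and 89.5% in the testicular portion and between 71.2% and 82.4% in the ovarian portion, so that these ranges did not overlap. Scaffolds are parts of 1 genome read by the same libraries and are no replicates.

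**Figure D2:**
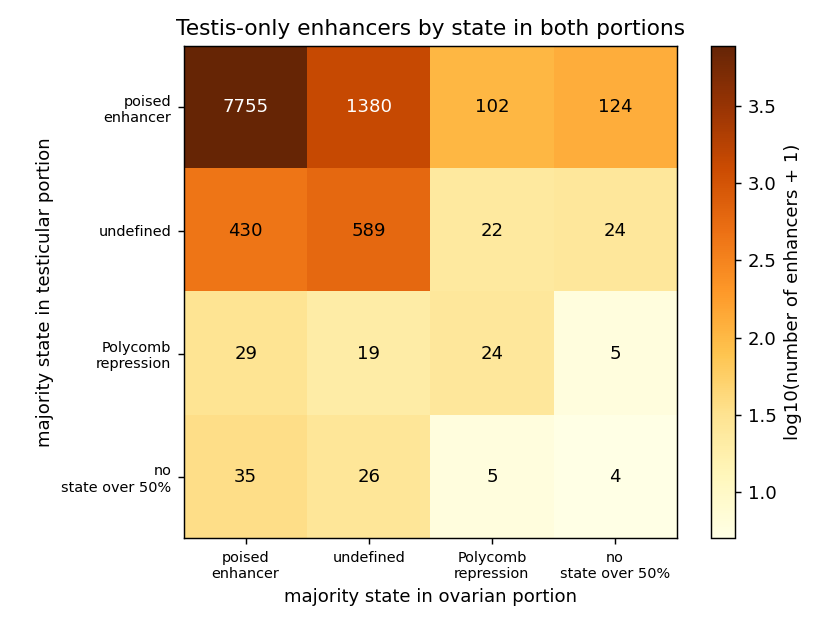
Number of testis-only distal enhancers by majority state (over 50% of bases) in the testicular portion (rows) and in the ovarian portion (columns), coloured on a log10 scale. The largest cell holds 7755 enhancers poised in both portions, and 1380 enhancers were poised in the testicular portion and undefined in the ovarian portion, against 430 the other way round.

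The same count in the other classes gave different orders. Among regions of the testicular portion alone, 682 (7.34%) were poised in the testis and not in the ovarian portion and 593 (6.38%) the other way round. Among regions of the ovarian portion alone, 1020 (13.6%) were poised in the testicular portion and not in the testis and 373 (4.96%) the other way round. In the testis-only class and in the ovarian-only class the tissue with more poised regions was thus the testicular portion in each case.

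Enhancers of different length had similar states in the ovotestis. The poised share in the testicular portion ran between 81.7% and 88.8% over 5 length groups, and that in the ovarian portion between 70.5% and 79.9%. It was lowest in the group of at least 4000 bp, which holds 144 enhancers, and highest at 600 to 800 bp in both portions. The poised share was higher in the testicular portion in each of these groups.

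Poised chromatin around the enhancers was wider in the testis than in either portion. At 1000 bp from the enhancer midpoint, 76.4% of the enhancers had the poised state in the testis, 65.3% in the testicular portion and 56.0% in the ovarian portion. At 2000 bp these shares were 62.6%, 42.4% and 39.5% in the same order, and at 10000 bp 37.9%, 32.8% and 34.1%. The active enhancer state at 10000 bp was present at 13.1% of the enhancers in the testis, 8.94% in the testicular portion and 5.93% in the ovarian portion, each above the 5.47%, 5.12% and 3.69% of the genome. The undefined state at 2000 bp was found at 23.5% in the testis, against 48.5% in the testicular portion and 52.3% in the ovarian portion. The testis had the most poised and active and the least undefined state at each of these distances outside the midpoint. The bases of the enhancers themselves and of neighbouring testis-only enhancers were not set aside here. By the rule these are active in the testis alone, so the order of the active and undefined states is partly built in. Flanks without them are given below, with poised shares in the flanks of the other classes.

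**Figure D3:**
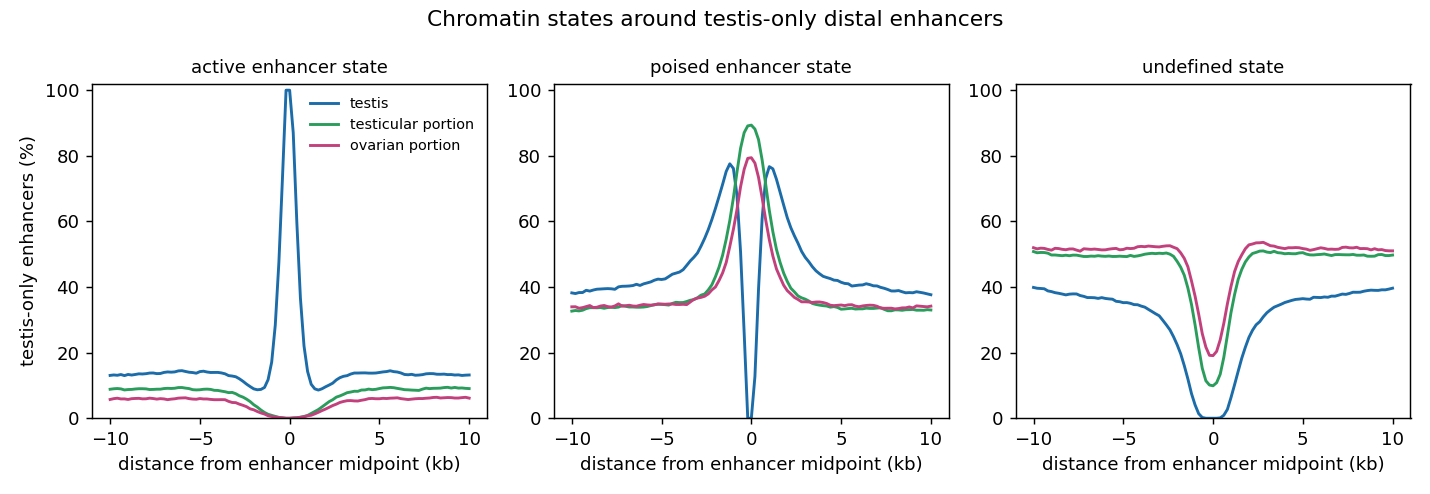
Share of the testis-only distal enhancers (%) in the active enhancer, poised enhancer and undefined state against the distance from the enhancer midpoint (kb), in the testis, the testicular portion and the ovarian portion. The testis has shoulders of poised state on both sides of the active centre (76.4% at 1 kb), while both portions have their poised maximum at the midpoint (89.4% and 79.4%).

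In the testis, the bin next to the enhancer was poised on both sides for 96.8% of the 10541 enhancers with a bin on either side. Both adjoining bins were poised for 68.6% in the testicular portion and 53.7% in the ovarian portion. Each enhancer is a whole active segment of the testis, so the adjoining bin cannot be active there, and the rule excludes promoter states. In the portions the edges of an enhancer need not be borders between states. The order of these shares is therefore partly built in. The active enhancer state touched 43 enhancers in the testicular portion and 52 in the ovarian portion. An active enhancer segment lay within 1000 bp of 660 enhancers (6.29%) in the testicular portion and of 496 (4.73%) in the ovarian portion. In the opposite sense, 42.8% of the enhancers had no active enhancer segment within 10000 bp in the testicular portion, 51.0% had none in the ovarian portion, and 29.9% had no further one in the testis.

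Runs of active or poised state without interruption, called enhancer blocks here, had a median of 8400 bp in the testis around these enhancers. In the testicular portion 89.4% of the midpoints lay in such a block, with a median of 4800 bp, and in the ovarian portion 79.4%, with a median of 4200 bp. For the 7925 enhancers inside a block in each of the 3 tissues the medians were 8800 bp in the testis, 5200 bp in the testicular portion and 4200 bp in the ovarian portion. The active segment itself made up a median of 13.0% of its testis block. A wider block in the tissue of activity was also seen for regions of the testicular portion alone (6200 bp there, 4400 bp in the testis and 3800 bp in the ovarian portion) and of the ovarian portion alone (6400 bp there, 4600 bp in the testis and 4200 bp in the testicular portion). In the tissue of activity the block holds the whole region by the rule, while elsewhere undefined or Polycomb bases inside the region can end it. The wider block there is therefore partly built in.

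Within 10 kb to either side, with the bases of all testis-only enhancers set aside, the active enhancer state covered 9.70% in the testis, 7.77% in the testicular portion and 5.16% in the ovarian portion. Poised chromatin took 49.3%, 36.4% and 35.9% of these flanks. The Polycomb state covered 3.16%, 2.40% and 2.84%, below its share of the genome in each tissue, 7.94%, 4.85% and 4.99%. A poised share highest in the tissue of activity was also found in the flanks of the other classes. For regions of the testicular portion alone it was 44.6% there, 35.5% in the testis and 35.9% in the ovarian portion. For regions of the ovarian portion alone it was 47.4% there, 34.0% in the testis and 34.8% in the testicular portion.

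Testis-only enhancers lay next to each other more often than their share of distal regions. The nearest other distal region was also testis-only for 3227 of 10511 enhancers with a neighbour (30.7%), while such enhancers make up 16.9% of distal regions. It was active in the testicular portion alone for 8.81% (14.9% of distal regions), in the ovarian portion alone for 7.93% (12.0%) and in both portions of the ovotestis but not the testis for 3.64% (7.18%). Regions shared by the testis and the testicular portion were the nearest for 17.0% (14.8%). Those shared by the testis and the ovarian portion were the nearest for 5.25% (3.98%), and regions active in all 3 tissues for 26.7% (30.3%). A neighbour of the same class was also frequent for regions of the testicular portion alone, with 27.4% (14.9% of distal regions), and of the ovarian portion alone, with 27.8% (12.0%). The median gap to the nearest distal region was 4600 bp for the testis-only enhancers.

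**Figure D4:**
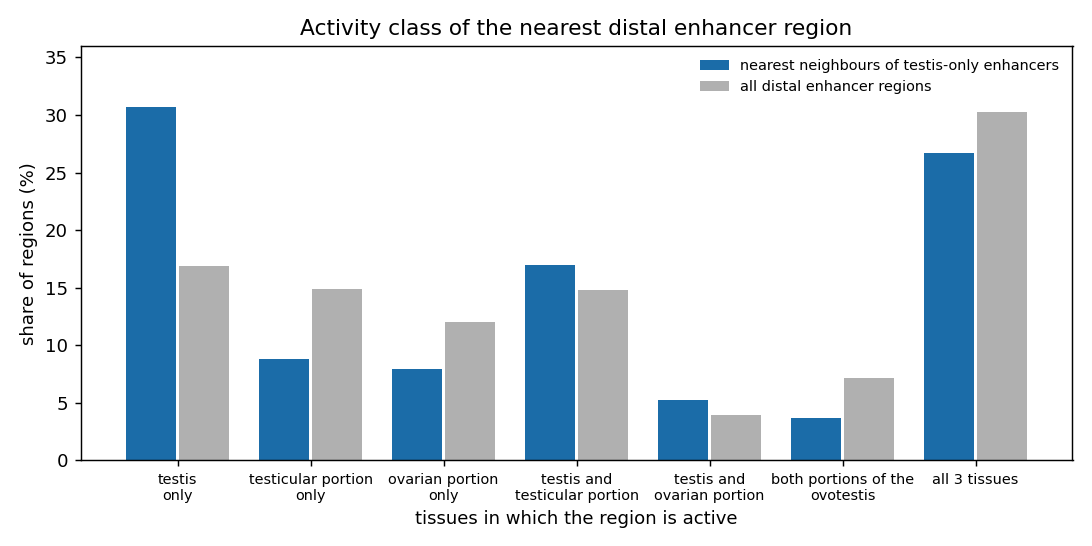
Share of regions (%) by the tissues in which they are active, for the nearest distal region of each testis-only enhancer and for all 62589 distal regions. Testis-only regions are 30.7% of the nearest neighbours and 16.9% of all distal regions, and regions active in the ovotestis without the testis are less frequent among the neighbours.

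Another testis-only enhancer lay within 10 kb of 3268 enhancers (30.9%), against 23.5% for regions of the testicular portion alone and 24.1% for those of the ovarian portion alone. These classes hold 10573, 9296 and 7515 regions, and a larger class has more neighbours within a fixed distance. The shares were not adjusted for this, so their order does not rank the classes by clustering. For the more numerous regions active in all 3 tissues the share was higher, 48.0%. Joined at gaps of up to 10 kb, the testis-only enhancers formed 325 groups of at least 3 and 33 groups of at least 5, against 1232 and 271 such groups of the 18946 regions active in all 3 tissues. The largest group had 9 enhancers over 41.6 kb on scaffold 16 at 9382201 to 9423800. There the active enhancer state covered 38.0% in the testis, 0% in the testicular portion and 5.77% in the ovarian portion, and the poised state 55.3%, 73.6% and 76.0%. The group was chosen for its number of testis-only enhancers, which cover 14800 bp of it. The contrast in the active enhancer state therefore follows largely from the choice. The Polycomb state was not called in the testis across this stretch and covered 19.7% in the testicular portion and 7.21% in the ovarian portion.

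**Figure D5:**
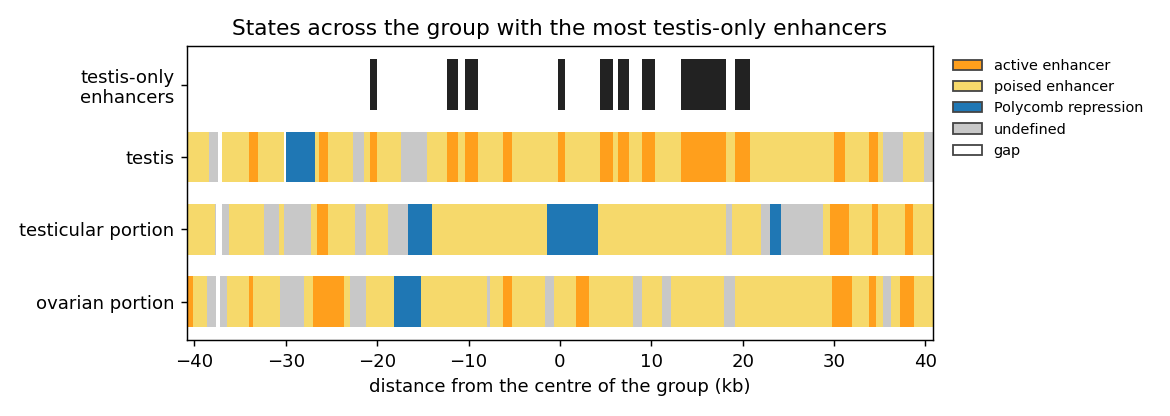
Chromatin states across the group of 9 testis-only enhancers on scaffold 16, by distance from the centre of the group (kb), with the enhancers in black above the testis, the testicular portion and the ovarian portion. Active stretches alternate with poised state in the testis, and the testicular portion is poised over 73.6% of the group with no active stretch inside it. The group was chosen for its number of testis-only enhancers, so activity in the testis alone is largely given by the choice.

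The groups next in size had other states in the ovotestis. A group of 7 on scaffold 4 at 125579201 to 125610000 was poised over 100% of its 30.8 kb in the testicular portion and over 65.6% in the ovarian portion. A group of 7 on scaffold 12 at 50471601 to 50507600 was poised over 52.2% in the testicular portion and 16.7% in the ovarian portion, with 80.0% undefined there. Of the groups of 6, the first by position lay on scaffold 1 at 98619201 to 98656400 and on scaffold 4 at 138247401 to 138279800. On scaffold 4 the poised state covered 66.0% in the testis, 29.0% in the testicular portion and 18.5% in the ovarian portion, where the Polycomb state covered 26.5%.

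The enhancers were also counted in windows of 100 kb. Of 19190 windows on scaffolds of at least 1 Mb, 12890 (67.2%) held no start of a testis-only enhancer and 171 (0.89%) held at least 5. There are more windows than enhancers, so many empty windows follow from the numbers alone. These counts were not compared with those of other classes and do not measure how uneven the spacing is. The window with the most testis-only bases was on scaffold 9 at 82100201 to 82200200, with 11 enhancers over 21000 bp. The active enhancer state covered 29.2% of it in the testis, 2.0% in the testicular portion and 0.20% in the ovarian portion. On scaffold 16 at 71900201 to 72000200 it covered 30.4%, 5.40% and 1.40% in the same order, and the Polycomb state 0%, 0% and 26.4%. The stretch on scaffold 3 from 106300201 to 106500200 is a pair of windows with 16000 and 15600 bp of testis-only enhancers. Their undefined share was 30.8% and 29.0% in the testis, 69.8% and 84.4% in the testicular portion, and 64.4% and 82.2% in the ovarian portion. The window on scaffold 4 at 138200201 to 138300200, with 10 enhancers, holds the last group above and had no active enhancer state in either portion. These windows are extremes of the measure that chose the enhancers, so large differences follow from the choice.

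On the 16 scaffolds with at least 50 testis-only enhancers there were between 4.64 and 6.49 of them per Mb, lowest on scaffold 2 and highest on scaffold 9. They made up between 15.1% and 19.3% of the distal regions of a scaffold, lowest on scaffold 14 and highest on scaffold 1. Scaffold 19, the other scaffold of at least 1 Mb, held 3 testis-only enhancers, or 0.794 per Mb, among 10 distal regions (30%), outside both of these ranges. Distal regions as a whole ran between 25.6 and 37.0 per Mb on the 16 scaffolds.

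The nearest testis promoter segment lay at a median of 56600 bp from a testis-only enhancer, with quartiles of 20200 and 147800 bp. Regions of the testicular portion alone had a median of 84000 bp to the promoters of that portion, regions of the ovarian portion alone 47000 bp to those of the ovarian portion, and regions active in all 3 tissues 46000 bp to those of the testis. The promoter sets differ in size, with 16637 segments in the testis, 16691 in the testicular portion and 19785 in the ovarian portion. Distances to different sets are therefore not strictly comparable. The share of testis-active distal regions that were testis-only grew with distance from the promoters of the 3 tissues, with 21.0% at 2 to 10 kb, 24.97% at 10 to 50 kb, 26.95% at 50 to 200 kb and 32.2% beyond 200 kb. The same shares were 12.5%, 19.5%, 24.7% and 34.8% for the testicular portion and 19.2%, 21.7%, 24.0% and 26.7% for the ovarian portion. Each of these shares was thus highest beyond 200 kb. In number, the testis-only enhancers were most frequent at 10 to 50 kb (3898) and least frequent beyond 200 kb (1364).

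For 1308 of 10401 testis-only enhancers (12.6%) the nearest testis promoter segment had no promoter base in either portion, while such segments are 7.08% of the testis promoters (1178 of 16637). For regions active in all 3 tissues the share was 8.89%. A share above that of the promoters was also found for regions of the testicular portion alone, with 11.7% against 6.73%, and of the ovarian portion alone, with 27.8% against 18.6%. In the shares of regions a promoter counts again for every region it is nearest to, but not in the shares of promoters. Of 4834 distinct promoter segments nearest to a testis-only enhancer, 505 had no promoter base in either portion. These 505 were mostly active or poised enhancer in the portions, with 46.9% and 27.7% of their bases in the testicular portion and 39.1% and 37.6% in the ovarian portion. Among enhancers undefined in both portions 16.5% had such a promoter nearest, and among those poised in both portions 11.1%.

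The longest testis-only enhancer, 8000 bp on scaffold 1 at 105117601 to 105125600, lay in a testis block of 41200 bp. It was poised over 95% in the testicular portion and over 57.5% in the ovarian portion, where the rest was undefined. Over the enhancer and 10 kb to either side, the stretch also used below for single enhancers, the Polycomb state covered 27.9% in the ovarian portion and 0% in both other tissues. The others of the 10 longest were between 6400 and 6600 bp long and lay on scaffolds 1, 3, 5, 6, 7, 12 and 16. The enhancer on scaffold 16 at 30462401 to 30469000 was poised over 100% in the testicular portion and over 66.7% in the ovarian portion. The enhancer on scaffold 6 at 22498601 to 22505200 was poised over 90.9% in the testicular portion and undefined over 100% in the ovarian portion. The reverse order was found on scaffold 5 at 127843201 to 127849800, poised over 72.7% in the testicular portion and over 100% in the ovarian portion.

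Enhancers fully poised in both portions were the most frequent kind, with 6317 (59.7%). Their median length was 1000 bp, and their median block was 8800 bp in the testis, 5800 bp in the testicular portion and 5000 bp in the ovarian portion. The longest, 6400 bp on scaffold 12 at 90889801 to 90896200, lay in blocks of nearly equal length, 27000 bp in the testis, 27000 bp in the testicular portion and 27200 bp in the ovarian portion. That this enhancer lay in a block in each tissue and was active in the testis alone follows from the choice. Around this enhancer the active enhancer state covered 53.8% of the stretch in the testis, 9.09% in the testicular portion and 8.33% in the ovarian portion. The next was 6200 bp long on scaffold 9 at 115319801 to 115326000, with blocks of 11200 bp in the testis, 16400 bp in the testicular portion and 16600 bp in the ovarian portion. Others lay on scaffold 9 at 31826801 to 31832600, on scaffold 14 at 47543401 to 47549200 and on scaffold 6 at 95442201 to 95447600.

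A smaller set, 638 enhancers (6.03%), was undefined over at least 50% of its bases in both portions. Their median length was also 1000 bp, and their median testis block was 6800 bp. In the 10 kb on either side of them the poised state covered 42.6% in the testis, 15.8% in the testicular portion and 18.5% in the ovarian portion. Low poised values in the portions may follow in part from the choice of enhancers that are undefined there. The longest, 6400 bp each, were 1 on scaffold 6 at 5003001 to 5009400 and a pair on scaffold 3 at 106354201 to 106360600 and at 106442001 to 106448400, inside the adjoining windows named above. Those on scaffold 3 were undefined over 53.1% and 78.1% in the testicular portion and over 53.1% each in the ovarian portion, and that on scaffold 6 over 65.6% in the testicular portion and 53.1% in the ovarian portion. On scaffold 12 at 33050001 to 33054800 an enhancer of 4800 bp was undefined over 100% in both portions, and the Polycomb state covered 16.9% in the testis, 29.0% in the testicular portion and 54.8% in the ovarian portion over the stretch with its flanks. The remaining named enhancer of this set lay on scaffold 10 at 56473801 to 56479600.

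Few of the enhancers were under Polycomb in the ovotestis. By majority of bases 77 were in the Polycomb state in the testicular portion and 153 in the ovarian portion, 24 of them in both, and 28 held it over at least 50% in both. For these 28 the surrounding 10 kb carried 30.1% of Polycomb state in the testis, 39.1% in the testicular portion and 49.4% in the ovarian portion. In the portions high values follow in part from the choice of the 28, since the median Polycomb run at their midpoints was 4600 bp in the testicular portion and 7000 bp in the ovarian portion, for a median enhancer length of 800 bp. The longest, 4600 bp on scaffold 2 at 44251401 to 44256000, was Polycomb over 100% in both portions, in runs of 10200 bp each. In the testis it sat in an enhancer block of 5000 bp with 74.0% of Polycomb state over the stretch with its flanks. On scaffold 7 enhancers of 2600 bp at 26390201 to 26392800 and at 26411001 to 26413600 shared a testis block of 26000 bp, and both were Polycomb over 100% in the ovarian portion. In the testicular portion they were Polycomb over 84.6% and 100%. The nearest testis promoter segment was 542400 and 521600 bp away. Further enhancers of this kind lay on scaffold 5 at 12633601 to 12636400 and on scaffold 10 at 77801201 to 77803600.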

How the data were processed

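The authors deposited 1 chromatin state segmentation per mole tissue, made from the 8 libraries the labels tie to it. The values are state names and not counts, and the score column holds no information. Whole gonads were fixed and sonicated, per the labels' protocols. Per the submitters' processing notes, STAR 2.6.1d was among the tools and mm9, a mouse build, the genome listed. The tool behind the mole tables, the marks behind each state and the depth are not given in these sources. Regions, state shares, distances and runs were computed on 200 bp bins with Python 3.11.15 and NumPy 2.4.6, and the selection was tested on simulated segmentations. A gap of exactly 2 kb was treated as too near, and touching regions stayed apart. The enhancers and measures were chosen with earlier results of these data known. Regions named are the 10 longest, the 5 longest of each state set, and the 5 groups and 5 windows with the most testis-only enhancers or bases. With 1 segmentation per tissue no test was run. No gene annotation or genome of talOcc4 was used here, so genes near the enhancers and their sequences are not given, and the planned gene lists were not used. Tissue labels were for the same reason not checked against marker genes. Mouse segmentations were not used.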

Additional observations from a re-analysis of the deposited data

How the results depend on the processing

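Over 9 other settings chosen at the outset and 3 chosen after seeing the data, 101 of 120 recomputed values stayed within 1.5 times the count or inside the 95% binomial interval of the reported value, and the poised share was higher in the testicular portion in 12 of 12. The intervals cover counting of regions only. The setting that asked for no bivalent promoter base in either portion could change nothing, since the distance to promoters already removed such bases. Its 10 unchanged values are among the 101, and it is among the 12 settings. With a minimum length of 1000 bp the number of enhancers was 6284, their median length 1400 bp, the share with another within 10 kb 23.2% and the median distance to a testis promoter 59600 bp. Minimum lengths of 200 and 600 bp gave 32.4% and 28.8% with another within 10 kb, and 600 bp gave a median length of 1200 bp. Distances to promoters of 1 and 5 kb gave medians of 54700 and 63000 bp, and 5 kb gave a Polycomb share of 0.620% in the testicular portion. Asking for no active base within 1 kb in either portion gave 85.7% poised in the testicular portion and 29.9% with another within 10 kb. With scaffolds 15 and 18 kept, the poised share was 85.7% in the testicular portion and 74.9% in the ovarian portion, and the Polycomb share 1.46% and 2.74%, each over 1.5 times the reported 0.779% and 1.69%. Activity read from the distal segments alone, an added setting, gave 85.3% poised and 12.2% undefined in the testicular portion and 21.4% undefined in the ovarian portion. Apart from the minimum length, which fixes the lengths by construction, the cause was not tested.

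No paired analysis was possible because each tissue has 1 segmentation over both replicates, and for the same reason leaving out a replicate was not done. The state calls carry no signal or depth, and an inactive enhancer and a missed call cannot be told apart.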

Other observations

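Scaffolds 15 and 18, which the selection left out, held distal regions active in the testis and in neither portion at lower density but in a larger share. On scaffold 15 these were 174 of 421 distal regions (41.3%), or 1.96 per Mb, against 5.31 per Mb on the other scaffolds. Their bases were poised over 55.9% and in the Polycomb state over 42.4% in the testicular portion, and poised over 30.8% and in the Polycomb state over 66.2% in the ovarian portion. On scaffold 18 they were 21 of 26 distal regions, and the gap state covered 85.6% of their bases in the testicular portion and 89.4% in the ovarian portion.

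One testis promoter segment was the nearest for 26 testis-only enhancers, the most of any, and was chosen after the values were seen. It is 200 bp long, on scaffold 8 at 9520001 to 9520200, and the enhancers lay between 2.6 and 367.6 kb away, 20 of them at higher positions. The segment had no promoter base in either portion and was in the Polycomb state over 100% in the ovarian portion. The 26 enhancers were poised over 86.7% of their bases in the testicular portion and over 72.8% in the ovarian portion. A promoter call of a single bin is the shortest possible.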
